A study of Mus musculus with 4 samples.

Results

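Binding of JunB, BATF and IRF4 in activated regulatory T (Treg) cells was examined at 9 genes that encode adhesion and homing molecules: *Itgae*, *Itgb7*, *Itga4*, *Itgb1*, *Itgal*, *Gpr15*, *Selplg*, *Cd44* and *Cd69*. The genes were listed by name for their function. A peak was assigned to a gene when its centre lay within 50 kb of any annotated transcription start site (TSS) of that gene in the mouse genome assembly mm9. This gave 155 peaks of 103355 in the 4 lists: 45 JunB peaks (of 29659), 19 BATF peaks (of 13570), 50 IRF4 peaks of *Junb*-sufficient cells (of 31093) and 41 IRF4 peaks of *Junb*-deficient cells (of 29033). No peak fell to more than 1 of the genes.

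Treg cells leave the blood and settle in tissue through a set of surface molecules. Integrins are pairs of one alpha and one beta chain that hold a cell to ligands on endothelium, epithelium or matrix, selectin ligands such as PSGL-1 let it roll on the vessel wall, chemoattractant receptors such as GPR15 direct it to an organ, and CD69 keeps it from leaving again. Many of these molecules are carried at higher levels by effector Treg (eTreg) cells than by resting ones. JunB and BATF are AP-1 proteins that bind DNA as dimers, and BATF-containing dimers can bind jointly with IRF4, a factor induced by T-cell receptor signals, at AP-1-IRF composite elements (AICE).

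CD4+CD25+ Treg cells from spleens of C57BL/6 mice were activated in vitro for 60 h with anti-CD3 and anti-CD28 antibodies and IL-2, and chromatin was immunoprecipitated and sequenced (ChIP-seq). *Junb*-sufficient cells gave a JunB, a BATF and an IRF4 library and *Junb*-deficient cells an IRF4 library, so that every condition was represented by 1 library. By the paper's methods the sufficient cells were *Junb* fl/fl and the deficient ones carried *Cd4*Cre in addition, so that both had floxed alleles and recombination was not limited to Treg cells, whereas the sample labels name Foxp3cre JUNB+/+ and Foxp3cre JUNBFl/Fl. The mice of the study were sex-matched young adults by the same methods, and how many were pooled for a library was not given. For the *Junb*-sufficient BATF and IRF4 libraries the antibody field of the labels names the other antibody than the titles, and the titles were followed. Whether *Junb* was deleted, and whether the cells carried Treg markers, could not be checked, because the lists hold positions of peaks and no read counts. The recorded totals lay between 21.1 M and 27.4 M tags (aligned reads, with M for mega) per library. With 1 library per condition no difference between genotypes was tested. Intervals of shares below are exact binomial (Clopper-Pearson) 95% intervals over peaks. Those of a median change of place were taken from ranks of the sorted changes. All intervals cover counting error only.

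The lists are not alike in resolution. JunB peaks were 151 bp wide and could lie 300 bp apart, whereas BATF and IRF4 peaks were 605 to 613 bp wide and at least 1210 bp apart, so that counts were not compared between antibodies. The tag threshold of a peak was 10 for JunB and 19 for the other lists, and a peak that is not listed does not show that binding was absent. The score of every peak was 1, and the place in the list was used to describe how strong a peak was. The file headers do not name the order, but an overlapping *Junb*-deficient peak existed for 95% of the *Junb*-sufficient IRF4 peaks when the list was cut into 10 parts and the top part was taken, and for 32.1% in the bottom part. The order of the JunB and BATF lists was not checked in this way, as each antibody had 1 list.

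The 9 genes differed widely in the number of peaks. *Cd69* had 13 JunB peaks, *Gpr15* 9, *Itgb1* 8 and *Cd44* 7, whereas *Itgae* and *Itgal* had 3 each, *Itga4* and *Selplg* 1 each and *Itgb7* none. Over all 22380 protein-coding genes the median was 1 JunB peak, and 64.8% of genes had at least 1. Counts as high as that of *Cd69* were found at 0.527% of genes, as that of *Gpr15* at 1.89%, as that of *Itgb1* at 2.79% and as that of *Cd44* at 3.99%. The window searched was of ordinary length, with a median of 100.1 kb for the 9 genes and for all genes, and the longest among the 9 was that of *Itgb1* at 138.7 kb. The latter reaches further because of an annotated TSS inside the gene (position 131248233). JunB peaks 39.8 and 40.7 kb past this TSS enter the *Itgb1* count through it. BATF peaks followed the same genes, with 5 at *Gpr15*, 4 each at *Itgb1* and *Cd44*, 3 at *Cd69*, 2 at *Itgal*, 1 at *Itgae* and none at *Itgb7*, *Itga4* and *Selplg*, where 48.9% of all genes had at least 1. The plot of peak counts by gene and library shows this order.

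**Figure D1:**
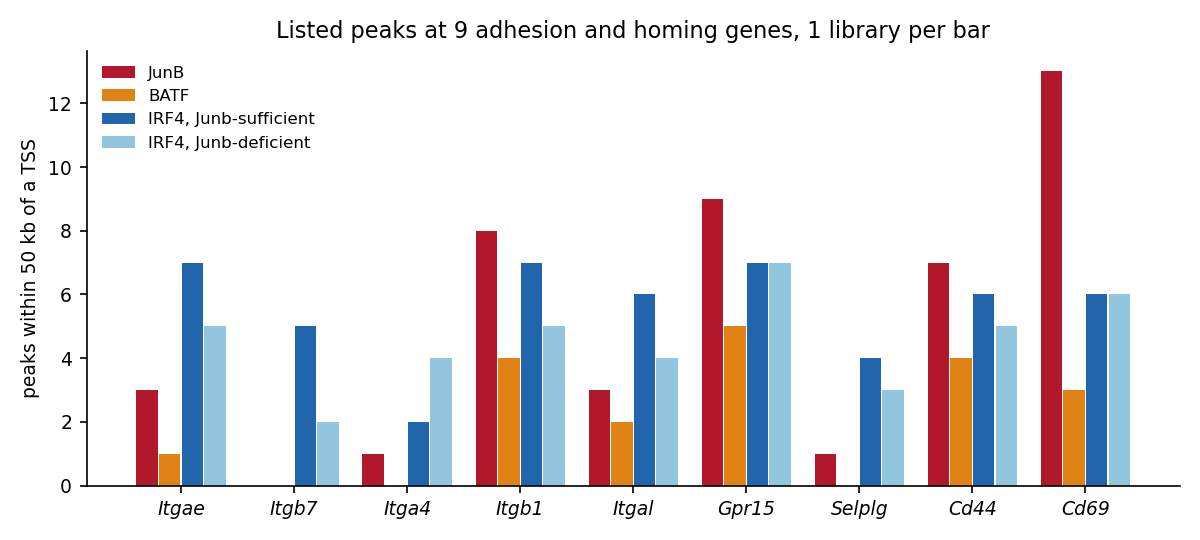
Number of peaks (y axis) whose centre lies within 50 kb of a TSS of each of the 9 genes (x axis), with 1 bar for each of the 4 libraries and no error, since each condition had 1 library. *Cd69* had the most JunB peaks (13) and *Itgb7* had none, while every gene had IRF4 peaks in both genotypes (2 to 7).

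**Figure D2:**
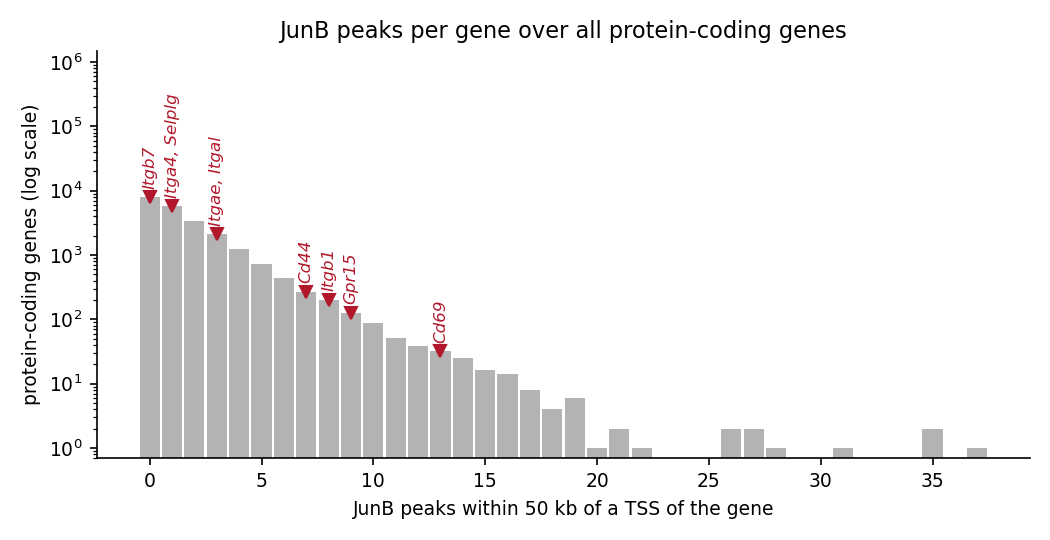
Distribution of the number of JunB peaks per gene (x axis) over 22380 protein-coding genes (y axis, number of genes on a log scale), with the bars of the 9 genes marked by triangles. *Cd44*, *Itgb1*, *Gpr15* and *Cd69* (7 to 13 peaks) lie in the thin right part, and the other 5 genes (0 to 3 peaks) in the bulk.

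IRF4 peaks were listed at each of the 9 genes. In *Junb*-sufficient cells *Itgae*, *Itgb1* and *Gpr15* had 7 IRF4 peaks each, *Itgal*, *Cd44* and *Cd69* 6 each, *Itgb7* 5, *Selplg* 4 and *Itga4* 2. In *Junb*-deficient cells *Gpr15* had 7, *Cd69* 6, *Itgae*, *Itgb1* and *Cd44* 5 each, *Itgal* and *Itga4* 4 each, *Selplg* 3 and *Itgb7* 2. The share of protein-coding genes with at least 1 IRF4 peak was 74.0% in *Junb*-sufficient and 73.3% in *Junb*-deficient cells. A window of this size also reaches into neighbouring genes. A TSS of the gene itself was the nearest protein-coding one for 36 of 45 JunB peaks and 16 of 19 BATF peaks, but only for 32 of 50 and 25 of 41 IRF4 peaks in *Junb*-sufficient and *Junb*-deficient cells. The positions of all peaks relative to the genes are shown in the map of the 9 loci.

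**Figure D3:**
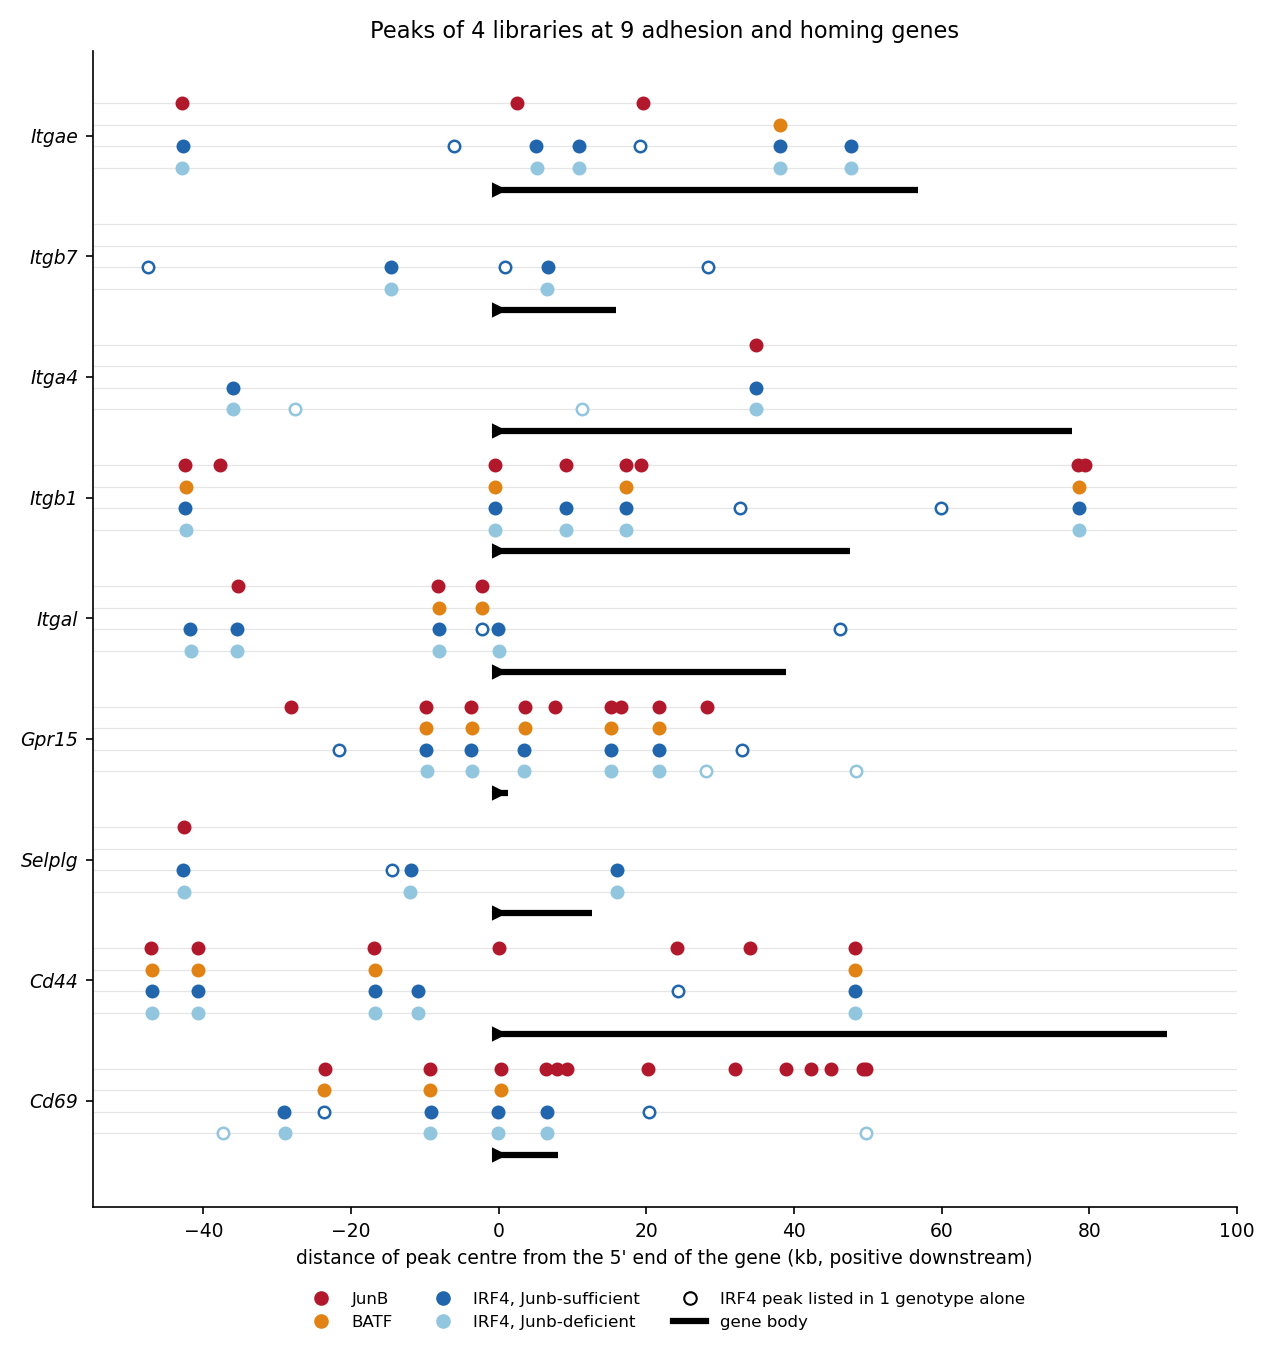
Positions of the peaks of 4 libraries at the 9 genes, with the distance of the peak centre from the 5' end of the gene in kb on the x axis (positive downstream) and 1 row per library, in the order JunB, BATF, IRF4 in *Junb*-sufficient and IRF4 in *Junb*-deficient cells, above the gene body in black. Open circles are IRF4 peaks listed in 1 genotype alone (15 in *Junb*-sufficient and 6 in *Junb*-deficient cells), and columns of filled circles at *Gpr15*, *Itgb1* and *Cd44* are sites listed for all 3 proteins.

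*Itgae* and *Itgb7* encode the chains of the integrin alphaE beta7, which binds E-cadherin on epithelial cells, and neither had a site shared by the 3 proteins. *Itgae* lies on chromosome 11 (72904085 to 72960948, plus strand). Its 3 JunB peaks lay 42.9 kb upstream (place 25234 of 29659) and in introns 2.44 kb (place 9620) and 19.6 kb (place 21946) past the TSS. Only the upstream one overlapped IRF4, and it stood 101 bp from a TSS of the neighbour *1200014J11Rik*. The single BATF peak, in an intron 38.1 kb past the TSS, was low in its list (place 12397 of 13570) and overlapped IRF4 peaks of both genotypes. The 7 IRF4 peaks of *Junb*-sufficient cells stood at places 6211 to 20558 of 31093. The highest, in an intron at 5.11 kb, was listed in *Junb*-deficient cells further down (20.0% and 41.3% of the way down the lists), and those 6.06 kb upstream and 19.2 kb downstream had no *Junb*-deficient counterpart.

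*Itgb7*, on chromosome 15 (102046426 to 102062366, minus strand), encodes the beta chain that pairs with alphaE and also with alpha4 in the gut-homing integrin. It was the only one of the 9 genes without a JunB peak and had no BATF peak either. Its 5 IRF4 peaks in *Junb*-sufficient cells stood between 47.1% and 88.4% of the way down the list, and 3 of them were not listed in *Junb*-deficient cells. One of these lay in an intron 816 bp past the TSS (place 21563) and held an AP-1 match, while the others stood 57 bp and 68 bp from TSSs of *Zfp740* and *Mfsd5*. The 2 kept peaks lay in an intron at 6.68 kb and 14.6 kb upstream, the latter 68 bp from a TSS of *Rarg*.

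*Itga4*, on chromosome 2 (79095583 to 79173280, plus strand), encodes alpha4, which binds MAdCAM-1 with beta7 and VCAM-1 with beta1. It had 1 JunB peak, in an intron 34.4 kb past the nearest TSS, which stood high in its list (place 3160 of 29659) and overlapped IRF4 peaks of both genotypes without a BATF peak. This IRF4 peak moved from place 14210 of 31093 in *Junb*-sufficient to place 24004 of 29033 in *Junb*-deficient cells, from 45.7% to 82.7% of the list, the largest move down at the 9 genes. Of the 7105 IRF4 peaks at JunB peaks near any protein-coding gene that were listed in both genotypes, 7.08% moved down as far. *Itga4* was also the one gene with more IRF4 peaks in *Junb*-deficient than in *Junb*-sufficient cells (4 and 2), the additional ones being 27.6 kb upstream (place 22066) and in an intron at 10.7 kb (place 8594), both away from JunB peaks. The other IRF4 peak, 36.0 kb upstream, moved up from 72.8% to 40% of the list.

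*Itgb1*, on chromosome 8 (131209554 to 131257100, plus strand), encodes beta1, the partner of alpha4 and of many matrix-binding alpha chains. It was the only one of the 9 with a promoter site at which the peaks of all 4 lists, at their listed widths, overlapped each other. At about 0.51 kb upstream of the TSS stood a JunB peak (place 8817 of 29659), a BATF peak (place 3790 of 13570) and IRF4 peaks at nearly the same place in both genotypes (4131 of 31093 and 4113 of 29033). Of its 8 JunB peaks, 4 overlapped both BATF and IRF4, at this promoter, 42.5 kb upstream, in an intron 17.0 kb past a TSS and beyond the 3' end of the gene, 39.8 kb from the nearest annotated start. All 5 of its IRF4 peaks at JunB peaks were kept in *Junb*-deficient cells. Near any protein-coding gene, 23.4% of IRF4 peaks at JunB peaks had no counterpart. Both IRF4 peaks of *Itgb1* without a counterpart lay low in the list (76.8% and 86.0%) and away from JunB.

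The site beyond the 3' end was the highest JunB peak of *Itgb1* with both partners (place 3630) and is shown for this reason, from mm9 chr8:131287993-131288143, plus strand. It overlapped the BATF peak at place 887 and an IRF4 peak at place 1174 in *Junb*-sufficient and 5571 in *Junb*-deficient cells (3.78% and 19.2% of the lists). It was also the least unique sequence of the 45 JunB peaks: 78 of its 121 overlapping 31-base words occurred once in mm9 (64.5%), and the most frequent word occurred 13239 times, whereas in 41 of the 45 peaks every word occurred once. In all sequences printed here, capitals mark matches to the AP-1 letters TGAGTCA or TGACTCA or to AICE on either strand, which can overlap each other, and this one held none. The second sequence, chr8:131171683-131171833 at 37.8 kb upstream (place 18421), overlapped no listed BATF or IRF4 peak. It is 1 of the 3 JunB peaks at the 9 genes with an AICE match, all printed here and chosen after their matches were seen.
Itgb1, 39.8 kb past the nearest TSS: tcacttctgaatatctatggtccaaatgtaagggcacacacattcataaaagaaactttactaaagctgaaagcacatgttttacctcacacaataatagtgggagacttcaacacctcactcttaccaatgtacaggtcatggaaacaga
Itgb1, 37.8 kb upstream: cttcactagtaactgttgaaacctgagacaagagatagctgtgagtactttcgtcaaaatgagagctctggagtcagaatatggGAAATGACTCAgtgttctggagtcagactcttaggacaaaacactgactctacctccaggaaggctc

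*Itgal*, on chromosome 7 (134439774 to 134478651, plus strand), encodes alphaL, which forms the integrin LFA-1 with beta2 and binds ICAM-1. Its 3 JunB peaks all lay upstream and all overlapped IRF4, and 2 of them overlapped BATF as well. The one 35.3 kb upstream stood 275 bp from a TSS of *Dctpp1*, and the one 8.19 kb upstream 1569 bp from a TSS of *Gm17511*. The one nearest the gene, 2.27 kb upstream at chr7:134437429-134437579, was the highest with both partners (JunB place 5754 of 29659, BATF place 1697 of 13570) and is shown because the IRF4 peak there had no *Junb*-deficient counterpart. That IRF4 peak (place 4292 of 31093) was the highest in its list of the 15 at the 9 genes that were not kept. In the same part of the list, the second of 10, 13.1% of IRF4 peaks at JunB peaks over the whole genome had no counterpart (341 of 2595). The nearest *Junb*-deficient peak was 2342 bp away, at the TSS of *Itgal*, and was itself kept (place 7485 in *Junb*-sufficient and 8488 in *Junb*-deficient cells). Peak calling required 4-fold more tags than in the surrounding 10 kb, and whether this kept a peak beside the one at the TSS off the list was not tested.
Itgal, 2.27 kb upstream: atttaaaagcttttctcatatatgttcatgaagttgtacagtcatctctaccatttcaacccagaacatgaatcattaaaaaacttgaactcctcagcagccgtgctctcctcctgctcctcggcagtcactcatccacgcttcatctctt
This sequence held no AP-1 or AICE match. The other *Itgal* site of the 3 proteins, 8.19 kb upstream (JunB place 13015, BATF place 2873), kept its IRF4 peak, which moved from 5.18% to 16.3% of the list.

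*Gpr15*, on chromosome 16 (58717548 to 58718837, minus strand), encodes a chemoattractant receptor that directs T cells, Treg cells among them, to the colon, and it held the highest peak of the 9 genes in each of the 3 *Junb*-sufficient lists. Of its 9 JunB peaks 5 overlapped both BATF and IRF4, a number reached by 0.795% of protein-coding genes. The first, 3.50 kb downstream of the TSS, stood at place 67 of 29659 for JunB, 102 of 13570 for BATF and 124 of 31093 for IRF4, and the IRF4 peak of *Junb*-deficient cells there stood at place 1224 of 29033. The second, 21.7 kb downstream, stood at places 901, 213 and 79, and at place 286 in *Junb*-deficient cells. The third, 15.2 kb downstream, stood at places 855, 831 and 520, and at place 883 in *Junb*-deficient cells. Each of these stood in the first 7% of every list in which it appears. The remaining 2, 3.72 kb upstream and 9.81 kb upstream, had JunB places 925 and 3403, and the latter lay 487 bp from a TSS of *Cldn25*, with its IRF4 peak moving from 28.2% to 46.2% of the list.

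The first and the second of these sites are printed, from chr16:58715265-58715415 as the highest JunB peak at the 9 genes and from chr16:58697029-58697179 as the only site of all 3 proteins there with an AICE match, whose AP-1 letters form part of it.
Gpr15, 3.50 kb downstream: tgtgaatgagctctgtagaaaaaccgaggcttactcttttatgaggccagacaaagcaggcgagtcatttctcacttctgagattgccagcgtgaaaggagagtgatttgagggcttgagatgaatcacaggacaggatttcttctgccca
Gpr15, 21.7 kb downstream: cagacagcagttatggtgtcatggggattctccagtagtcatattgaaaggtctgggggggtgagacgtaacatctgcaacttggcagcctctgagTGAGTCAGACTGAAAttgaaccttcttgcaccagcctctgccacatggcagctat
All 5 IRF4 peaks at JunB peaks of *Gpr15* were kept in *Junb*-deficient cells. The 2 IRF4 peaks that were not kept lay away from JunB, 32.9 kb downstream (place 6026) and 21.6 kb upstream (place 13896). In turn, the *Junb*-deficient list alone held 2 IRF4 peaks, 28.1 kb downstream (place 5605 of 29033), where *Junb*-sufficient cells had a low JunB peak (place 26817), and 48.5 kb downstream at *Cpox* (place 27832). The peaks at 32.9 and 28.1 kb, each listed in 1 genotype, were 4858 bp apart.

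*Selplg*, on chromosome 5 (114267807 to 114280510, minus strand), encodes PSGL-1, the main ligand of P-selectin on T cells, and had few peaks. Its single JunB peak (place 15276 of 29659) lay 42.7 kb upstream and 1441 bp from a TSS of *Coro1c*, overlapped IRF4 in both genotypes and held an AP-1 match. None of its 4 IRF4 peaks had *Selplg* as the nearest gene. The peak 11.9 kb upstream moved up from 81.9% to 39.3% of the list and the peak 15.9 kb downstream from 51.0% to 20.6%, both away from JunB, and the peak 14.4 kb upstream (place 23287) was not kept.

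*Cd44*, on chromosome 2 (102651298 to 102741822, minus strand), encodes the receptor for hyaluronan that marks effector and memory T cells. It had 4 sites of all 3 proteins among 7 JunB peaks, a number reached by 2.11% of genes. The highest IRF4 peak lay in an intron 47.9 kb past the TSS, at place 135 of 31093 in *Junb*-sufficient and place 166 of 29033 in *Junb*-deficient cells, with JunB at place 1019 and BATF at place 630. The highest JunB peak with both partners lay 47.0 kb upstream, at place 649, with BATF at place 1892 and IRF4 moving from place 1607 to 4771. The site 40.8 kb upstream (JunB place 9998) moved from 17.4% to 39.2% and that 16.9 kb upstream (JunB place 26123) from 42.7% to 56.4% of the IRF4 lists. The intron site was thus the one of the 4 with nearly the same place in both genotypes. Within 1 kb of a TSS *Cd44* had a JunB peak alone, 56 bp into an exon (place 19594).

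Below are the site 47.0 kb upstream, chr2:102788794-102788944, which held the AP-1 letters at 2 positions, and the intron site 23.9 kb past the TSS, chr2:102717537-102717687 (JunB place 10662), whose IRF4 peak (place 15275 of 31093) was the only one of *Cd44* without a *Junb*-deficient counterpart.
Cd44, 47.0 kb upstream: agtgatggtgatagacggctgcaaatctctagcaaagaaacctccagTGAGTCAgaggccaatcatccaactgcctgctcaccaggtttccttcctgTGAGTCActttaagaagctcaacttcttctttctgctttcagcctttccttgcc
Cd44, 23.9 kb past the TSS: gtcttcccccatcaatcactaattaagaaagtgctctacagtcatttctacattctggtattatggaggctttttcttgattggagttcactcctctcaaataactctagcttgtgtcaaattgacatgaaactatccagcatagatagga
No BATF peak overlapped the intron site, and the nearest *Junb*-deficient IRF4 peak was 23997 bp away. In this part of the list, the fifth of 10, 37.4% of IRF4 peaks at JunB peaks over the genome had no counterpart.

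*Cd69*, on chromosome 6 (129217342 to 129225387, minus strand), encodes the early activation antigen that holds T cells in tissue by opposing S1PR1, the receptor for exit. It had the most JunB peaks of the 9 genes, 13. Of these, 8 overlapped neither BATF nor *Junb*-sufficient IRF4, and 2 overlapped both, 1 of the 2 with an IRF4 peak that was kept. Of JunB peaks near any protein-coding gene, 47.8% overlapped neither and 34.1% overlapped both. Whether the 13 peaks differ from these shares was not tested. The JunB peaks without partners lay 7.85 to 49.8 kb downstream of the TSS, at places 6404 to 16790 of 29659. A pair of neighbours, 49.3 and 49.8 kb downstream, followed each other in the list (places 11910 and 11909) and were closer together than IRF4 peaks could be. At the promoter JunB (place 3616) and BATF (place 2927 of 13570) were centred 0.305 and 0.314 kb past the TSS, and IRF4 0.158 kb upstream (place 3574 of 31093). IRF4 overlapped BATF but not JunB, with JunB peaks 151 bp and BATF peaks 613 bp wide. With JunB peaks widened to the width of the BATF and IRF4 peaks, 18 of the 45 at the 9 genes overlapped both, instead of 17. The promoter IRF4 peak was kept and stood higher in *Junb*-deficient cells (place 2062 of 29033).

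*Cd69* was the only one of the 9 genes with 2 IRF4 peaks at JunB peaks that were not kept. One lay 20.4 kb downstream (place 16510) without BATF, and the other 23.7 kb upstream (place 13784) with BATF (place 5229). The share without a counterpart over the genome was 39.7% and 37.4% in the parts of the list where they stood. In turn 2 IRF4 peaks high in the *Junb*-deficient list were absent from the other, 49.8 kb downstream at a JunB peak (place 1055, 3.63% of the list) and 37.3 kb upstream (place 3532, 12.2%). In the top part of 10 of the *Junb*-deficient list, 2.90% of peaks at JunB peaks lacked a *Junb*-sufficient counterpart. In the next part, 16.6% of peaks away from JunB, as was the one 37.3 kb upstream, lacked one. The sequences are those of the JunB peaks under the 2 IRF4 peaks that were not kept (chr6:129205105-129205255 and chr6:129248907-129249057) and of the JunB peak with an AICE match (chr6:129216000-129216150, place 6404), which had no partner.
Cd69, 20.2 kb downstream: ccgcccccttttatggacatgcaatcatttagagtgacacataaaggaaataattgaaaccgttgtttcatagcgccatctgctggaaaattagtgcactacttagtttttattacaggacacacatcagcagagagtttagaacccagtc
Cd69, 23.6 kb upstream: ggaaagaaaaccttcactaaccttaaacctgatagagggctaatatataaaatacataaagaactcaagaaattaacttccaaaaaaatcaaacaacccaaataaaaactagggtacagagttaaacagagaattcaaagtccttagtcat
Cd69, 9.31 kb downstream: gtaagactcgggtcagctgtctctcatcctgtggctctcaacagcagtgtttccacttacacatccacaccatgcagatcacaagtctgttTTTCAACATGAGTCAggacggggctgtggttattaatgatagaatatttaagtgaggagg

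Over the 9 genes, the shares of JunB peaks that overlapped the other proteins could not be told from those elsewhere. Of the 45 JunB peaks 17 overlapped both BATF and IRF4 (37.8%, interval 23.8 to 53.5%), against 34.1% of the 19279 JunB peaks within 50 kb of any protein-coding TSS. Overlap with BATF was found for 40.0% (18 of 45) against 37.4%, with IRF4 for 55.6% (25 of 45) against 48.9%, and with neither for 42.2% (19 of 45) against 47.8%. Each of these background values lay inside the interval of the 9 genes. The 17 sites of all 3 proteins were found at 5 genes, *Gpr15* (5), *Itgb1* and *Cd44* (4 each), *Itgal* and *Cd69* (2 each).

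Read from BATF, the overlap was nearly complete. Of the 19 BATF peaks 18 overlapped JunB (94.7%, interval 74.0 to 99.9%), against 69.9% of the 10128 BATF peaks near protein-coding genes, and 19 of 19 overlapped IRF4 (100%, interval 82.4 to 100%), against 88.5%. If BATF and IRF4 of *Junb*-sufficient cells were exchanged, as in the antibody field, the share at JunB would be 50% (25 of 50). The BATF peaks of the 9 genes also stood higher in their list, with a median place of 13.9% and 17 of 19 in the first 50%, against a median of 50% for all BATF peaks near genes. The exceptions were the *Itgae* peak (91.4%) and the *Cd44* peak 16.8 kb upstream (78.5%). For JunB the median place was 32.0% against 46.4%, and for IRF4 43.6% against 50.2% in *Junb*-sufficient and 29.2% against 50% in *Junb*-deficient cells. IRF4 peaks coincided with JunB in 25 of 50 cases (50%, interval 35.5 to 64.5%), against 38.5% of IRF4 peaks near genes. Peaks of 1 locus share their surroundings and are not independent, and whether the higher places account for the larger overlap was not tested.

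Of the 50 IRF4 peaks 35 had an overlapping counterpart in the *Junb*-deficient list and 15 had none (30.0%, interval 17.9 to 44.6%), against 34.3% of the 24078 IRF4 peaks near protein-coding genes. With the antibodies exchanged as in the labels' field, this share was 10.5% (2 of 19). The background of 34.3% is that of the lists as titled and does not belong to the exchanged value. Among the 25 IRF4 peaks at JunB peaks 4 had none (16.0%, interval 4.54 to 36.1%), against 23.4%. Among the 25 away from JunB 11 had none (44.0%, interval 24.4 to 65.1%), against 41.1%. Where JunB and BATF both overlapped, 2 of 17 had none (11.8%, interval 1.46 to 36.4%), against 16.0% of 6594. These 2 were those of *Itgal* and *Cd69* described above. In the other direction 6 of 41 *Junb*-deficient IRF4 peaks lacked a *Junb*-sufficient counterpart (14.6%, interval 5.57 to 29.2%), against 30.2% of 22684, a value just above the interval, and these 6 were at *Itga4*, *Gpr15* and *Cd69* (2 each). For each share of *Junb*-sufficient IRF4 peaks without a counterpart, with the lists as titled, the background lay inside the interval. The shares and their intervals are compared in the plot of shares.

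**Figure D4:**
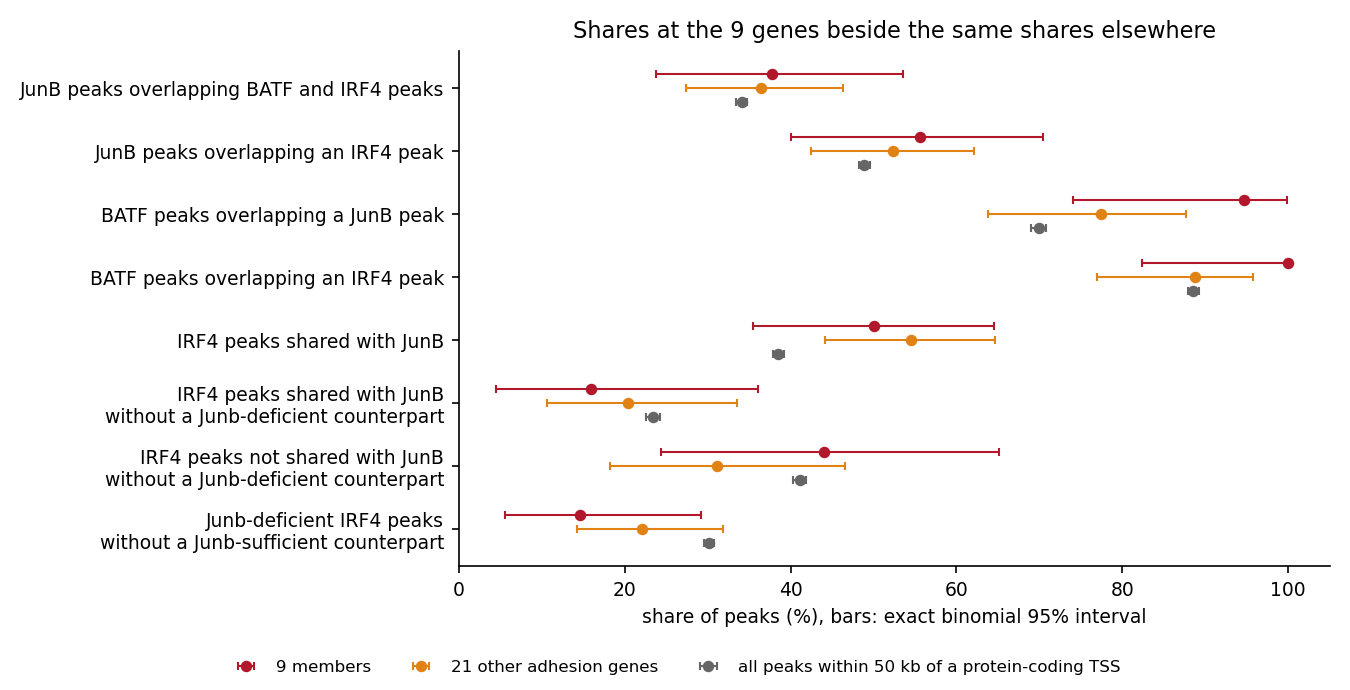
Shares of peaks in percent (x axis) for 8 kinds of overlap (y axis) at the 9 genes, at 21 other adhesion genes and over all peaks within 50 kb of a protein-coding TSS, as points with exact binomial 95% intervals over peaks. The intervals of the 9 genes include the value over all peaks except for BATF peaks at JunB (94.7% against 69.9%) and *Junb*-deficient IRF4 peaks without a counterpart (14.6% against 30.2%).

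The kept IRF4 peaks changed place little in the middle and much at single sites. The change of place, in points of percent of the list with positive values for a lower place in *Junb*-deficient cells, had a median of 1.39 over the 35 kept peaks (interval of the median -0.475 to 9.80), against 0.206 over 15823 kept peaks near genes. The sign turned with the antibodies exchanged (-4.07 points, interval -13.8 to 2.49, 17 kept peaks). That interval includes no change, and the background of 0.206 is that of the lists as titled. At JunB peaks 16 of 21 moved down (76.2%), with a median of 1.95 points, against 60.7% and 1.98 points elsewhere. Away from JunB 7 of 14 moved down, with a median of -1.86 points against -2.93. The largest moves down at JunB peaks were those of *Itga4* (45.7% to 82.7%), *Cd44* (17.4% to 39.2%), *Gpr15* (28.2% to 46.2%) and *Itgb1* (3.78% to 19.2%). The 4 peaks nearest the top in *Junb*-sufficient cells, 3 at *Gpr15* and 1 at *Cd44*, stood in the first 5% in *Junb*-deficient cells, as the plot of places shows.

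**Figure D5:**
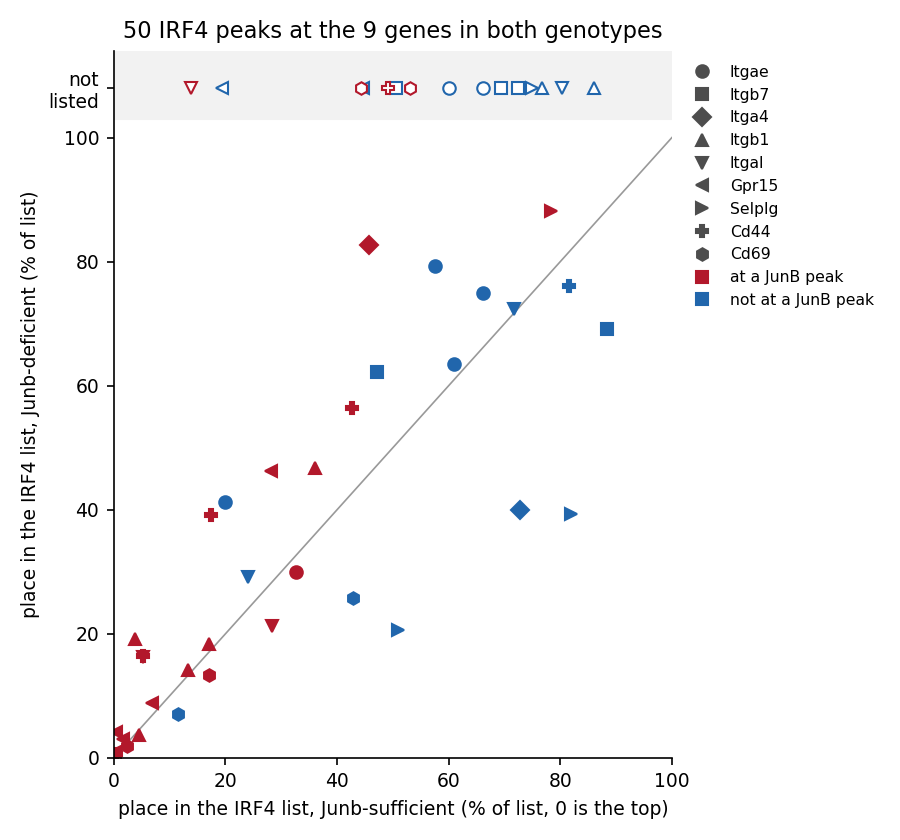
Place of the 50 IRF4 peaks of the 9 genes in the list of *Junb*-sufficient cells (x axis, percent of the list, 0 being the top) and of *Junb*-deficient cells (y axis, same unit), with peaks not listed in *Junb*-deficient cells as open symbols in the grey band, a line of equal place, symbols by gene and red for peaks at a JunB peak. Red symbols mostly lie above the line (16 of 21 kept), and 4 red and 11 blue symbols lie in the band.

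Sequence matches were few. Within 100 bp of the centre, 11 of 45 JunB peaks held the AP-1 letters TGAGTCA or TGACTCA (24.4%, interval 12.9 to 39.5%), against 27.3% of JunB peaks near genes, 3 held AICE (6.67%, interval 1.40 to 18.3%), against 3.95%, and 4 held the core of the interferon-stimulated response element (GAAA, 2 bases of any kind and GAAA; 8.89%, interval 2.48 to 21.2%), against 6.55%. All were searched on both strands, and an AICE match contains AP-1 letters in part or whole. Among JunB peaks with both partners 5 of 17 held AP-1 letters (29.4%, interval 10.3 to 56.0%), against 42.0%, and among those with neither 5 of 19 (26.3%, interval 9.15 to 51.2%), against 15.2%. Both intervals include the background and overlap each other. Of the 3 AICE matches only that of *Gpr15* lay at a site with BATF and IRF4, and those of *Itgb1* and *Cd69* lay at JunB peaks that overlapped neither. None of the 4 JunB peaks under IRF4 peaks without a counterpart, printed above, held AP-1 letters or AICE.

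Most peaks lay more than 1 kb from a TSS, at the 9 genes as near protein-coding genes in general. Within 1 kb of a TSS of the gene lay 3 JunB peaks (*Itgb1*, *Cd44* and *Cd69*), 2 BATF peaks (*Itgb1* and *Cd69*), 4 IRF4 peaks in *Junb*-sufficient cells (*Itgb1*, *Itgal*, *Cd69* and *Itgb7*) and 3 in *Junb*-deficient cells (all but that of *Itgb7*). The share was 8.00% for IRF4 in *Junb*-sufficient and 7.32% in *Junb*-deficient cells, 6.67% for JunB and 10.5% for BATF. Promoters of neighbouring genes held 7 further IRF4 peaks in *Junb*-sufficient and 6 in *Junb*-deficient cells, 3 JunB peaks and 1 BATF peak. Near any protein-coding gene, 21.5% and 24.9% of IRF4 peaks, 9.23% of JunB peaks and 10.5% of BATF peaks lay within 1 kb of a TSS. There the TSS of any gene counts, so these values belong beside own and neighbouring promoters together, not beside the shares above. Together these held 4 and 7 of 50 IRF4 peaks in *Junb*-sufficient and 3 and 6 of 41 in *Junb*-deficient cells. For JunB they held 3 and 3 of 45 peaks, and for BATF 2 and 1 of 19. By these counts a distal position was not particular to the 9 genes.

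The wider adhesion machinery was covered by 21 other genes, among them *Itgb2* (the partner of alphaL), *Itgav* and *Itgb8* (which together activate TGF-beta), *Cd226*, the enzymes *Fut7* and *Gcnt1* that build selectin ligands, *S1pr1* and its regulator *Klf2*. JunB peaks were found at 20 of them, with a median of 4 and up to 12 (*Itgb8*), and BATF peaks at 19, with a median of 2 and up to 7. IRF4 peaks were found at all 21 in both genotypes. Of their 107 JunB peaks 39 overlapped both BATF and IRF4 (36.4%, interval 27.4 to 46.3%), close to the 37.8% of the 9 genes. Of their 53 BATF peaks 41 overlapped JunB (77.4%, interval 63.8 to 87.7%), against 94.7% at the 9 genes (interval 74.0 to 99.9%). Of their 99 IRF4 peaks 25 had no *Junb*-deficient counterpart (25.3%, interval 17.1 to 35.0%), and of the 54 at JunB peaks 11 (20.4%, interval 10.6 to 33.5%). *S1pr1*, the receptor that CD69 opposes, had 8 JunB peaks, 6 of them with both partners, and kept all 8 of its IRF4 peaks. Near any protein-coding gene, 34.3% of IRF4 peaks had no counterpart.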

How the data were processed

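The data were 4 peak lists of ChIP-seq with antibodies against JunB, BATF and IRF4, from splenic CD4+CD25+ Treg cells after activation. Reads had been mapped by the authors to mm9 using Bowtie2, and HOMER (version 4.8 in the submitters' processing notes) had called peaks library by library. The recorded command names no control library. HOMER kept at most 1 tag per bp, a false discovery rate of 0.001 and peaks at least 4-fold above the surrounding 10 kb, which removed 5.25% (JunB) to 37.4% (IRF4, *Junb*-sufficient) of putative peaks. The deposited files hold positions and a score, which was 1 throughout and therefore not used as a measure. Samples were grouped by their titles. Total tags per library ranged from 21127029 to 27399986.

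Starts were converted to positions counted from 1. TSSs of 22380 protein-coding genes came from GENCODE vM1 on the same assembly. Peaks overlapping by at least 1 bp were called shared. Background values use all peaks of a library within 50 kb of a protein-coding TSS. Motifs were matched within 100 bp of the peak centre, and sequences were read from the same assembly. Python 3.11.15, NumPy 2.4.6, SciPy 1.17.1 and matplotlib 3.10.9 were used, and overlap, window and motif steps were tested on simulated data. No test was made, since each condition had 1 library.

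The 9 genes, the 21 other genes and the alternatives were chosen with earlier results of these data known. Named peaks were those within 1 kb of a TSS, the highest JunB peak of each gene with both partners and each IRF4 peak shared with JunB without a *Junb*-deficient counterpart; one such *Cd69* peak and one of the other genes are not reported here by themselves. All other peaks described, and the JunB peaks with an AICE match, were chosen after their values were seen. Alternatives were windows of 10 and 100 kb, TSSs of protein-coding transcripts, the first 50% of each list, centres within 100 bp, exchanged antibodies, nearest genes only and matches within the listed peak. Widening the JunB peaks and accepting *Junb*-deficient peaks within 1 kb were added after seeing the data. The RNA-seq and other experiments of the study were not analysed here.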

Additional observations from a re-analysis of the deposited data

How the results depend on the processing

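Of 77 values recomputed under other settings, 63 were classed as unchanged, 13 moved and 1 changed sign. Shares and medians were classed as unchanged inside the interval reported, which was often wide. Counts were so classed even where the first 50% of each list left 32 of 45 JunB peaks and 29 of 41 *Junb*-deficient IRF4 peaks. A window of 10 kb gave 15 JunB, 8 BATF, 16 *Junb*-sufficient IRF4 and 12 *Junb*-deficient IRF4 peaks, and one of 100 kb gave 73, 31, 82 and 74, as fewer or more bases were searched. The first 50% of each list left 30 *Junb*-sufficient IRF4 peaks. The share of BATF peaks at JunB was 100% within 10 kb and 100% over peaks whose nearest TSS was that of one of the 9 genes. It was 87.1% within 100 kb (27 of 31) and 78.9% with centres within 100 bp (15 of 19). With BATF and IRF4 of *Junb*-sufficient cells exchanged, as in the antibody field of the labels, the share of BATF peaks at JunB was 50%. The share of IRF4 peaks without a *Junb*-deficient counterpart was then 10.5%, and the median change of place turned to -4.07 points (interval -13.8 to 2.49). The exchange also traded the shares of JunB peaks with BATF (55.6%) and with IRF4 (40%), at the edge of their intervals. The shares of JunB peaks with both, with AP-1 and with AICE stayed inside their intervals under the settings tried for them.

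No paired analysis was possible because each condition had 1 library. The lists hold no tag counts, so how far a missing peak stood below the limits of the caller was not measured, and the genotypes cannot be told apart from the libraries.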
